A study of Rattus norvegicus with 5 samples.

Results

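Ribosomal protein genes were followed in a fraction of rat blood that is labelled as myeloid-derived suppressor cells (MDSCs), immature myeloid cells that can restrain T cells. They were chosen by symbol: probes whose annotation gives exactly 1 gene symbol, of the form Rpl or Rps with a number, or Rplp0 to Rplp2, or Rpsa, without the Rps6k kinases. The rule found 44 probes for 41 genes among 26856 probes, and each gene is given by its probe with the highest mean signal. By symbol 26 of the 41 genes were counted to the large ribosomal subunit and 15 to the small subunit. Of these 15, Rps4x-ps9 and Rps27a-ps1 are annotated as pseudogenes in RefSeq, although the annotation of their probes gives an mRNA entry for each. Which copy these probes read was not tested. Another 3 probes named for ribosomal proteins carry several symbols and were left out. Rplp2, Rpsa and Rps6 were not analysed here. The cells came from LEW.1A rats at day 100 after a kidney transplant. Tolerant recipients (3 arrays) had kept a LEW.1W kidney, mismatched for MHC class I and II, after treatment with the anti-CD28 antibody JJ319. Syngeneic recipients (2 arrays, although the series' design text counts 3 recipients per group) had a LEW.1A kidney and no mismatch, and the labels give no antibody for them. Donor LEW.1W kidneys were 8 to 12 weeks old, and for allografts both own kidneys were removed 7 days after transplantation. The ages of the recipients are not stated. In both groups red cells were lysed, MHC class II+ and CD3+ cells were depleted with beads, and magnetic sorting for CD80 and CD86 followed, which enriches cells but does not purify 1 type. No label ties an array to an animal, so the tests see the spread from sample to sample only, and that spread may be technical.

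A ribosome translates messenger RNA into protein. Its small subunit reads the codons and its large subunit joins the amino acids. The ribosomal proteins stand in fixed ratios in the finished particle, and their genes are transcribed at high rates in nearly every cell. In mammals most of their mRNAs begin with a cytosine followed by a run of pyrimidines, the terminal oligopyrimidine (TOP) tract, through which the growth-regulating kinase mTOR can switch their translation together. Control of that kind acts on translation and need not alter the amount of mRNA that an array reads. Ribosomal protein mRNAs are also among the most abundant of a leukocyte, and their genes have many processed pseudogenes, so a probe may pick up near-identical copies.

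The start region of the genes is shown because the TOP tract is the sequence feature they share and the rule did not use it. RefSeq promoter sequences (GRCr8) were found for 32 of the 41 genes. The tract was searched as a C followed by at least 4 letters that are each C or T, beginning within 10 bases on either side of the annotated start. It was present on the sense strand in 25 of 32 genes (78.1%), against 27.7% of all 27457 promoters. On the other strand the shares were 25.0% and 33.7%. A C at the start base followed by at least 4 pyrimidines was found in 17 of 32 genes (53.1%), against 2.63% of all promoters; in 12 of the 17 the longest tract begins before the start base, and in 5 at it. In the 250 bases before the start, the ETS factor core CGGAAG, searched on both strands, was present in 14 genes (43.8%, against 14.7% of all promoters). The E-box CACGTG was present in 2 genes (6.25%, against 5.79%) and TATAAA in 3 (9.38%, against 13.1%). The genes printed here have the largest group differences in either direction or, for Rps7 and Rplp1, a longest tract that begins at the start base. The windows run from 50 bases before the start to 15 bases from it, 5′ to 3′ on the gene's strand, with the tract in capitals where there is one. Rps3 lies at chr1:163195762-163195826, minus strand, Rps23 at chr2:23814467-23814531, plus strand, Rpl9 at chr14:43247540-43247604, plus strand, and Rps7 at chr6:50999431-50999495, minus strand. Rplp1 lies at chr8:71290858-71290922, minus strand, Rpl39 at chrX:121195882-121195946, minus strand, Rpl4 at chr8:73566427-73566491, plus strand, and Rpl3 at chr7:113507976-113508040, minus strand.
Rps3: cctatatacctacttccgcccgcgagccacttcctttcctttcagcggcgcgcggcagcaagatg
Rps23: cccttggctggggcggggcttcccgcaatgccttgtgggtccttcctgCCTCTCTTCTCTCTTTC
Rpl9: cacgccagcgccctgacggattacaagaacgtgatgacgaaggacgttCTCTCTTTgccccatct
Rps7: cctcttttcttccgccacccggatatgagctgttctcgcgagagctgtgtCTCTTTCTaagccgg
Rplp1: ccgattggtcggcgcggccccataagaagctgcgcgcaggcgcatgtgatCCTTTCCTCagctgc
Rpl39: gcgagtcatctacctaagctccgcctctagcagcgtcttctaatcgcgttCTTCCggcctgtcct
Rpl4: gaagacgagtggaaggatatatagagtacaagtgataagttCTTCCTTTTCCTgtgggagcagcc
Rpl3: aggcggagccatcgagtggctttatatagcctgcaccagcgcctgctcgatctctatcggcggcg
Of these 8 windows, those of Rps3 and Rpl3 hold no tract by this rule, which says only that these letters do not begin near the annotated start. The median group difference described further on was -0.14 over the 25 genes with a tract and 0.00 over the 7 without.

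The arrays read 1 chemiluminescent signal per probe, and values are quantile-normalised log2 signals as deposited. With no detection call in the files, background was taken from the 482 probes for olfactory receptors, whose 95th percentile on each array was log2 10.76 to 11.17. Syngeneic array 2 stood apart, with correlations across probes of 0.84 to 0.86 to the rest, while all other pairs of arrays gave 0.89 to 0.92. Of 9 myeloid markers with a probe 5 were above background on all arrays (Cd14, Cebpb, Fcgr3a, Lyz2 and Sirpa), while Cd80, an antigen of the sort, was at background on all of them. The summed signal (log2) of 13 NK cell markers was 13.28 to 13.75 on tolerant and 17.81 to 17.93 on syngeneic arrays, with 0 of them above background on all arrays and Ncr1 and Ncr3 at background on all. For 12 T cell markers it was 13.96 to 14.55 against 17.14 to 17.16, with 1 above background on all arrays (Cd8b) and Cd6 and Zap70 at background on all. For 8 neutrophil markers it was 15.39 to 17.43 against 19.67 to 21.16, with only S100a8 above background on all arrays and Lcn2 at background on all. For 6 erythroid markers it was 11.48 to 12.46 against 15.59 and 21.16, with 0 above background on all arrays and Alas2, Epor and Gata1 at background on all. For 2 B cell markers it was 14.78 to 17.52 against 12.52 and 14.03, with Cd79b above background on all arrays, and for 3 platelet markers 10.40 to 10.72 against 10.99 and 13.42, with none above background on all and Gp5 at background on all. The summed signal of the 9 myeloid markers was 20.22 to 21.01 against 19.56 to 19.98. The part of these cells in the values of ribosomal protein genes was not tested. In RNA from a mixed sort, fewer cells of a type and less RNA per cell cannot be told apart.

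All 41 genes were above background on all 5 arrays, the closest by 3.29 on the log2 scale (Rpl3 on syngeneic array 2). Their log2 signals ran from 14.14 to 20.74, where the highest value of any probe is 20.88. Neither the labels nor the files say whether the detector was near its limit at such signals, and a signal near a limit understates differences. Levels of different probes are not set against each other, because probes bind with different strength.

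**Figure D1:**
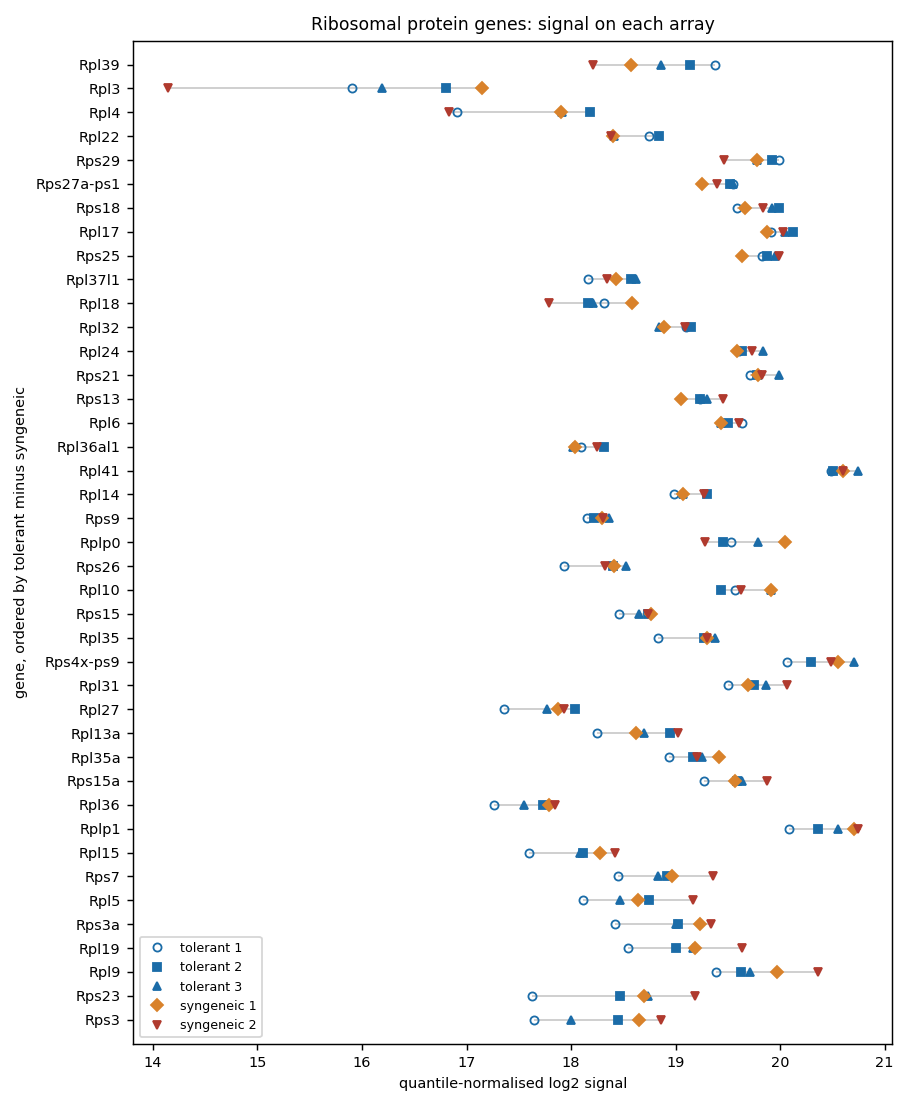
Quantile-normalised log2 signal (x axis) of the 41 ribosomal protein genes (y axis, ordered by the tolerant minus syngeneic difference), with 1 symbol per array and a grey line over the range of the 5 arrays. For most genes the 5 values lie close together, and Rpl3 on syngeneic array 2, at 14.14, is the widest exception.

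The comparison asked whether cells of recipients that tolerate an allograft carried more or less ribosomal protein mRNA than those of syngeneic recipients. Of the 41 genes 0 passed the test in either direction (limma across 13428 probes, lowest adjusted p = 0.907), where 6 of all probes tested, or 0.0447%, did. At an unadjusted p under 0.05 in limma 0 of 41 were found, against 5.37% of all probes tested. The differences, tolerant minus syngeneic on the log2 scale, ran from -0.73 to 0.73 with a median of -0.08; for all probes tested the median was 0.00 and the 10th and 90th percentiles were -0.88 and 0.93. A negative difference was found in 24 genes (58.5%, against 49.7% of all probes tested) and a positive one in 17. Of the 470 probes at least as bright as the dimmest of these genes 41.1% had a negative difference, and their median was 0.07. These 470 include the 41 genes, and their cut-off is the mean of Rpl3, log2 16.04. The median signal of the 41 genes was 18.93 to 19.29 on the arrays, so the 470 are not matched to them in brightness. The median was -0.07 for the 26 large subunit genes and -0.08 for the 15 small subunit genes. A miss of the threshold does not show equal levels: the 95% intervals of the differences stayed within 1 log2 unit on both sides for 10 genes and within 1.5 for 33, and the widest, that of Rpl3, ran from -1.52 to 2.83. Quantile normalisation sets the whole distribution of each array equal. When arrays were instead scaled by a single factor (the median or the 75th percentile) or left unscaled, the median of the 41 genes relative to that of all probes tested was -0.24 under each of these 3 settings. The genes with a negative difference were then 38, 34 and 39 of 41, where 59.7%, 51.8% and 70.3% of all probes tested had one. The median of all probes tested was then -0.16, -0.03 and -0.37, so these counts include a shift of all probes. The split of 24 and 17 above was that with quantile normalisation, and the cause of the change was not tested.

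**Figure D2:**
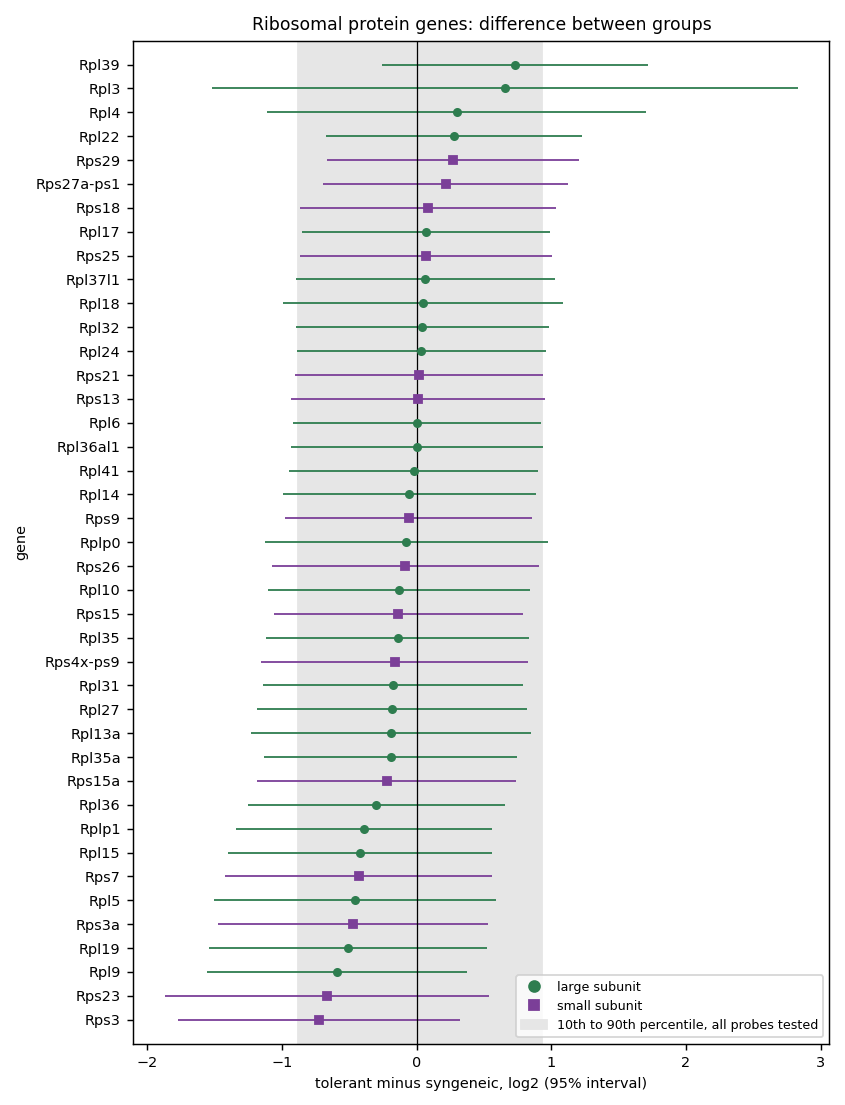
Tolerant minus syngeneic difference in log2 signal (x axis) with its 95% interval from limma for each of the 41 genes (y axis), large subunit genes as circles and small subunit genes as squares. The grey band is the 10th to 90th percentile of all probes tested, -0.88 to 0.93; all 41 points lie within it and all intervals include 0.

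The lower end held proteins of both subunits. Rps3, a small subunit protein at the entry of the mRNA channel with roles outside the ribosome in DNA repair and NF-kB signalling, was at 17.65, 18.45 and 18.00 on tolerant arrays 1, 2 and 3 and at 18.65 and 18.87 on syngeneic arrays 1 and 2. The groups did not overlap, and the difference was -0.73 (SE 0.43, adjusted p = 0.907), or 0.604 times the syngeneic level. Rps23, which lies at the decoding centre and bears on the accuracy of translation, was at 17.63, 18.47 and 18.74 in tolerant and 18.70 and 19.19 in syngeneic cells. Tolerant array 1 was the low one and tolerant array 3 lay within the syngeneic range, so the groups overlapped; the difference was -0.66 (SE 0.50, adjusted p = 0.907), and it was -0.34 without tolerant array 1 and -0.42 without syngeneic array 2. Rpl9, a large subunit protein near the site where elongation factors bind, was at 19.39, 19.63 and 19.71 in tolerant and 19.97 and 20.36 in syngeneic cells. Here every tolerant value was below both syngeneic values, with a difference of -0.59 (SE 0.40, adjusted p = 0.907; -0.39 without syngeneic array 2).

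Rpl19, a large subunit protein that reaches across to the small subunit, was at 18.55, 19.01 and 19.16 in tolerant and 19.19 and 19.64 in syngeneic cells. The gap between the groups was narrow, and the difference was -0.51 (SE 0.42). Rps3a, on the platform of the small subunit, was at 18.42, 19.02 and 19.01 against 19.24 and 19.34, a difference of -0.47 (SE 0.41). Rps7, a small subunit protein that can also bind the p53 regulator Mdm2, was at 18.45, 18.92 and 18.83 against 18.97 and 19.36, a difference of -0.43 (SE 0.41). In all 3 genes tolerant array 1 was lowest and syngeneic array 2 highest. Rpl5, which carries the 5S rRNA into the large subunit, was at 18.11, 18.75 and 18.47 in tolerant and 18.64 and 19.16 in syngeneic cells. Its groups overlapped, with a difference of -0.46 (SE 0.43). Rpl15, an rRNA-binding protein of the large subunit, was at 17.60, 18.11 and 18.08 against 18.28 and 18.42, a difference of -0.42 (SE 0.40) without overlap. The adjusted p was 0.907 in limma for each of these 5 genes. Without syngeneic array 2 the difference was -0.28 for Rpl19, -0.24 for Rps7 and -0.19 for Rpl5. Without tolerant array 1 it was -0.33 for Rpl19, -0.28 for Rps3a, -0.29 for Rps7 and Rpl5 and -0.25 for Rpl15.

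At the upper end stood Rpl39, a very small protein that lines the exit tunnel of the nascent chain. It was at 19.37, 19.14 and 18.87 on tolerant arrays 1, 2 and 3 and at 18.57 and 18.21 on syngeneic arrays 1 and 2. Every tolerant value was above both syngeneic values, and the order of the arrays was nearly the reverse of that of Rps3: tolerant array 1 was highest and syngeneic array 2 lowest. The difference was 0.73 (SE 0.41, adjusted p = 0.907), or 1.66 times the syngeneic level. It lay between 0.55 and 0.91 when any 1 array was left out, and was 0.50 with 75th percentile scaling, 0.37 with median scaling and 0.16 with no scaling, or 0.53, 0.53 and 0.52 relative to the median of all probes tested. Rpl22, an RNA-binding protein of the large subunit that mice need for the development of alpha-beta T cells, was at 18.75, 18.84 and 18.41 against 18.40 and 18.38. Its groups did not overlap either, but tolerant array 3 lay only just above the syngeneic arrays, and the difference was 0.28 (SE 0.39, adjusted p = 0.935). The probe named Rps27a-ps1, a pseudogene in RefSeq of the gene for a ubiquitin and ribosomal protein fusion, was at 19.55, 19.52 and 19.55 against 19.26 and 19.40. The difference was 0.22 (SE 0.37) without overlap (limma, adjusted p = 0.952). Rps29, a zinc-binding protein of the small subunit, differed by 0.27 (SE 0.39, adjusted p = 0.936), with syngeneic array 2 lowest at 19.47. The difference of Rps29 was 0.12 without syngeneic array 2 and 0.43 without syngeneic array 1, and that of Rps27a-ps1 was 0.14 without syngeneic array 1.

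The positive differences of Rpl3 and Rpl4 turned when 1 array was left out. Rpl3, which sits next to the peptidyl transferase centre of the large subunit, was at 15.90, 16.81 and 16.19 in tolerant cells and at 17.14 and 14.14 on syngeneic arrays 1 and 2. Syngeneic array 1 was thus the highest and syngeneic array 2 the lowest of all, 3.00 log2 units apart. The difference was 0.66 (SE 0.90, adjusted p = 0.934), and it was -0.84 without syngeneic array 2 and 2.16 without syngeneic array 1. Rpl4, which reaches into the exit tunnel, was at 16.91, 18.18 and 17.92 in tolerant and 17.91 and 16.84 in syngeneic cells. Both a tolerant and a syngeneic array were low, and the difference of 0.30 (SE 0.58, adjusted p = 0.954) became -0.24 without syngeneic array 2 and 0.043 without tolerant array 2. Rplp0, the base of the stalk that recruits elongation factors, was at 19.53, 19.45 and 19.79 in tolerant and 20.05 and 19.29 in syngeneic cells, where the syngeneic arrays were again the highest and the lowest. It differed by -0.08 (SE 0.43, adjusted p = 0.988), and by 0.30 without syngeneic array 1.

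Counted over all genes, the groups did not overlap in 11 of the 41. Tolerant values were all lower in 8 genes (19.5%, against 10.4% of all probes tested): Rps3, Rpl9, Rpl19, Rps3a, Rps7, Rpl15, Rplp1 and Rpl36. They were all higher in 3 genes (7.32%, against 9.74% of all probes tested): Rpl39, Rpl22 and Rps27a-ps1. Among the 470 bright probes, tolerant values were all lower in 11.3% and all higher in 18.5%. Rpl36, outside the rule for named genes and chosen after its values were seen, was at 17.27, 17.74 and 17.55 against 17.79 and 17.85. The lower count was 7 of 41 with scaling to the median, 9 with scaling to the 75th percentile and 15 with no scaling, where 10.6%, 8.99% and 18.5% of all probes tested were lower. The higher count was 1, 1 and 0, against 5.56%, 8.94% and 2.85%.

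After quantile normalisation the narrowest genes moved very little over the 5 arrays. Ranges under the other scalings are not given here. Rpl6, a large subunit protein, ranged over 0.20 log2 units, from 19.44 to 19.64, and differed by 0.00 (SE 0.38) between the groups. With no scaling that difference was -0.43, where the median of all probes tested was -0.37. Rps9, a small subunit protein, ranged over 0.21 units from 18.15 to 18.36. Rpl17, at the mouth of the exit tunnel, ranged over 0.24 units, Rpl24, a bridge to the small subunit, over 0.25, Rpl41, the shortest ribosomal protein, over 0.26, and Rps21 over 0.27. Their group differences lay between -0.06 (Rps9) and 0.07 (Rpl17). The paralog-like Rpl36al1 and Rpl37l1 differed by 0.00 (SE 0.39) and 0.07 (SE 0.40), and Rps18, in the head of the small subunit, by 0.08 (SE 0.39). The sign of several of these small differences depended on the scaling. Relative to the median of all probes tested, Rpl24, Rpl37l1, Rps18 and Rps21 lay above it with quantile normalisation and below it in all of the 3 other settings, while Rpl17, like Rpl22, Rps27a-ps1, Rpl4 and Rps29, lay above it in each. The 16 genes not named by the rule differed by -0.30 to 0.07 and ranged over 0.31 to 0.80 units; they are Rpl10, Rpl13a, Rpl14, Rpl18, Rpl27, Rpl31, Rpl32, Rpl35, Rpl35a, Rpl36, Rps13, Rps15, Rps15a, Rps25, Rps26 and Rps4x-ps9, the last a pseudogene in RefSeq.

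The spread between arrays of a group was small. The residual standard deviation within groups had a median of 0.21 over the 41 genes and 0.61 over all probes tested, and 8.39% of all probes tested lay below the genes' median. For 38 genes it was under 0.4; the other 3 were Rps23, Rpl4 and Rpl3, with 0.51, 0.70 and 1.28. The syngeneic arrays differed from each other by a median of 0.21 over the 41 genes, against 0.74 over all probes tested. With median scaling, 75th percentile scaling and no scaling that gap was 0.56, 0.47 and 0.40 over the 41 genes and 0.84, 0.81 and 0.77 over all probes tested, and the median standard deviation of the genes was 0.50, 0.30 and 0.58 against 0.66, 0.62 and 0.70. Bright probes spread less in general: over the 470 probes at least as bright as the dimmest of these genes the median standard deviation was 0.26 and the median gap between the syngeneic arrays 0.35. As said above, these 470 probes include the 41 genes and are not matched to them in brightness. Because limma moderates each variance toward a common one, the SE exceeded what the gene's own spread gives in 39 of the 41 genes and was below it in 2, Rpl3 and Rpl4. With a prior variance that follows intensity, an alternative chosen after seeing the data, Rpl39, Rps3 and Rpl9 had SEs of 0.24, 0.27 and 0.23. These 3 of 41 then had an unadjusted p under 0.05 (5.44% of all probes did), and 0 passed after adjustment in limma (lowest adjusted p = 0.777).

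**Figure D3:**
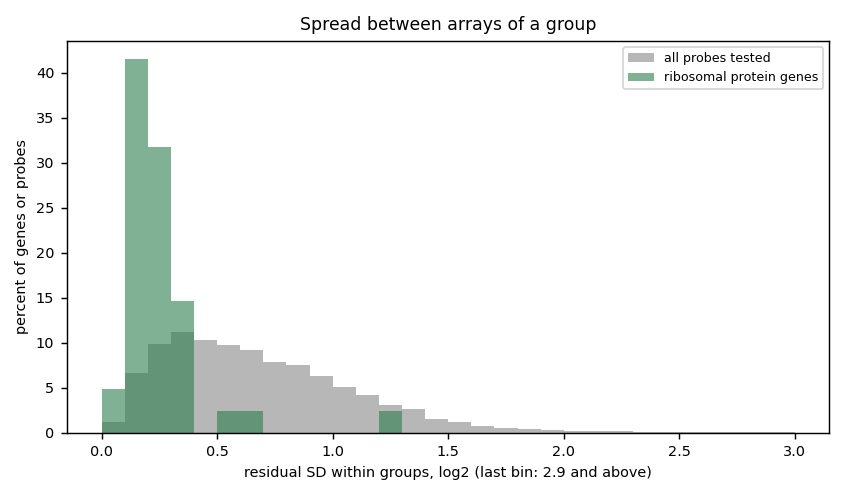
Residual standard deviation within groups in log2 units (x axis) as percent of genes or probes (y axis) for the 41 ribosomal protein genes in green and all 13428 probes tested in grey. Most of the genes lie under 0.4, with a median of 0.21 against 0.61.

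The genes did not sit evenly on the arrays. Tolerant array 1 held the lowest value of 25 of the 41 genes (61.0%), where it held the lowest of 21.7% of all probes tested. It held the highest value of 4 (9.76%, against 22.0% of all probes tested and 25.3% of the 470 bright probes). Syngeneic array 2 held the highest value of 15 genes (36.6%, against 30.7% of all probes tested) and the lowest of 7 (17.1%, against 25.4%, and 36.8% of the 470 bright probes). With median scaling, 75th percentile scaling and no scaling, tolerant array 1 held the lowest value of 38, 30 and 40 genes and syngeneic array 2 the highest of 33, 34 and 34. Of all probes tested 39.2%, 20.7% and 51.3% were then lowest on tolerant array 1 and 39.5%, 35.4% and 38.2% highest on syngeneic array 2. With quantile normalisation both patterns met in 13 genes, lowest on tolerant array 1 and highest on syngeneic array 2: Rps3, Rps3a, Rps7, Rps15a, Rps23, Rpl5, Rpl9, Rpl13a, Rpl15, Rpl19, Rpl31, Rpl36 and Rplp1. The opposite was seen in Rpl39 and Rps29, highest on tolerant array 1 and lowest on syngeneic array 2. The shares of all probes tested with either pair of arrays were not counted. As deviation from each gene's own mean over the 5 arrays, the median was -0.22 on tolerant array 1 and from 0.02 to 0.08 on the other arrays. Without tolerant array 1 the median group difference of the 41 genes was 0.00 in place of -0.08. Tolerant array 1 also had the lowest raw signal. The median raw intensity of the genes was 259781 on it and 569267, 594846, 601585 and 854264 on tolerant arrays 2 and 3 and syngeneic arrays 1 and 2, while the median over all probes was 563, 600, 758, 798 and 676 in the same order. After scaling to a common 75th percentile, the genes' median deviation was -0.39 on tolerant array 1 and 0.42 on syngeneic array 2, and that of all probes tested -0.02 and 0.13. The part of array quality or RNA quality in this was not tested.

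**Figure D4:**
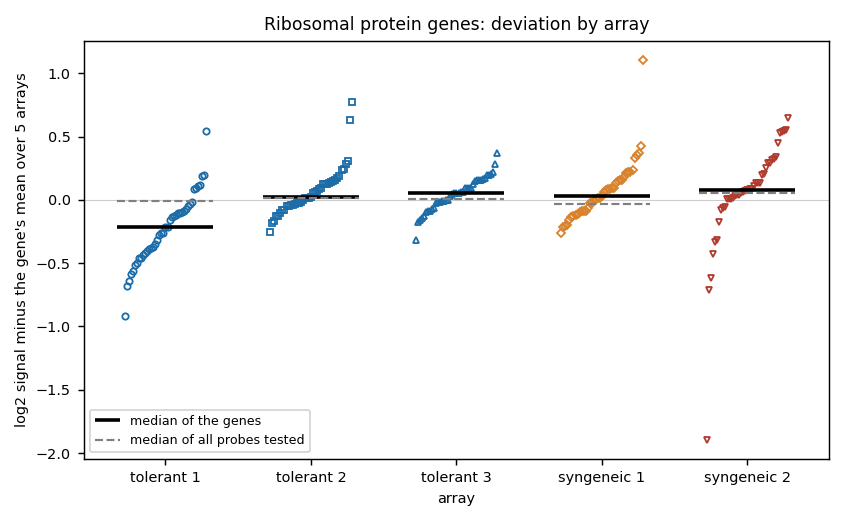
Log2 signal of each ribosomal protein gene minus its own mean over the 5 arrays (y axis), by array (x axis), each array's genes sorted from low to high. Black bars are the medians of the 41 genes and dashed grey bars those of all probes tested; the genes' median is -0.22 on tolerant array 1 and 0.02 to 0.08 on the other arrays, and the low point on syngeneic array 2 is Rpl3.

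After quantile normalisation few of these genes took a far value on any array. On syngeneic array 2, which stood apart over all probes, a value more than 1 log2 unit from the mean of the other 4 arrays was found for 1 of the 41 genes, Rpl3, against 33.6% of all probes tested and 16.6% of the 470 bright probes. On tolerant array 1 this held for Rps23 (24.5% of all probes tested), on syngeneic array 1 for Rpl3 (18.6%), and on tolerant arrays 2 and 3 for 0 genes (16.5% and 19.4%). Of the bright probes 4.89%, 4.04%, 4.68% and 2.13% did so on these 4 arrays. Without quantile normalisation far values were more frequent: on tolerant array 1 they were found for 19 genes with median scaling, 4 with 75th percentile scaling and 29 with no scaling (27.9%, 20.7% and 41.5% of all probes tested), and on syngeneic array 2 for 9, 6 and 9 genes (38.4%, 36.5% and 38.6%).

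In 3 genes a second probe gave a second measure of the group difference. For Rpl22 the probes gave differences of 0.28 and 0.15. For Rplp1, an acidic protein of the stalk, the brighter probe was at 20.08, 20.36 and 20.56 in tolerant and 20.70 and 20.74 in syngeneic cells, a difference of -0.39 (SE 0.39) with all tolerant values lower. The dimmer probe was at 20.56, 20.60 and 20.30 against 20.36 and 20.19, a difference of 0.21 (SE 0.39) with overlap, so the probes gave opposite signs. For Rps21 the brighter probe gave 0.02 (SE 0.38) and the dimmer -0.54 (SE 0.40), the latter with all tolerant values, 16.02, 16.35 and 16.35, below the syngeneic 16.61 and 16.96. The gaps between the probes' differences were 0.12, 0.60 and 0.56 for Rpl22, Rplp1 and Rps21, and the median gap over 48 named genes with exactly 2 tested probes was 0.62, with opposite signs in 17. The largest differences among the 41 genes were of about that size. The 48 genes were not limited to bright probes, and the cause of the gaps was not tested.

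**Figure D5:**
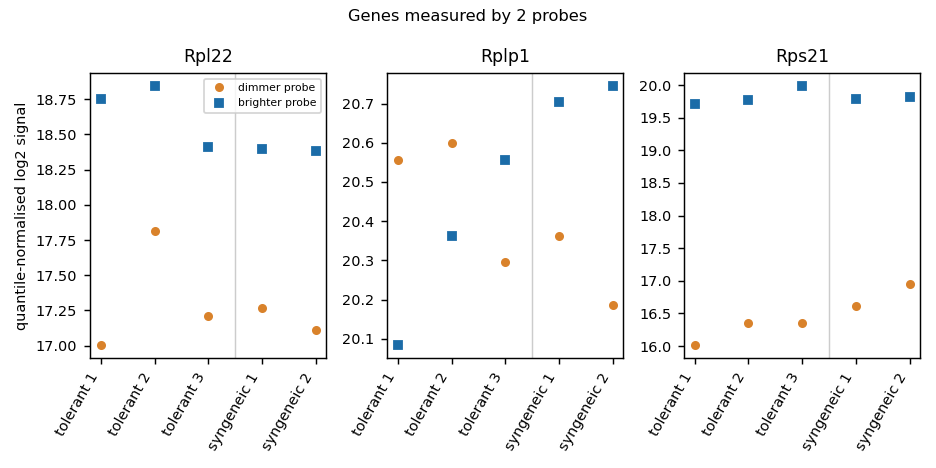
Quantile-normalised log2 signal (y axis) on each array (x axis) of the brighter probe, as squares, and the dimmer probe, as circles, of Rpl22, Rplp1 and Rps21. The grey line separates tolerant from syngeneic arrays. The probes of Rplp1 differ between the groups in opposite directions, with differences of -0.39 and 0.21.

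The rest of the translation machinery gave 0 calls in limma as well, with 0 genes of these lists at an unadjusted p under 0.05. Of all probes tested 0.0447% were called, 5.37% had an unadjusted p under 0.05 and 49.7% had a negative difference. With so small a share called, 0 calls in such short lists says little about them. Initiation factors had a median of 0.20 over 18 tested genes, 4 lower and 14 higher. Eif3d, a subunit of the scaffold that brings the small subunit to the mRNA, was at 13.15, 13.29 and 13.18 in tolerant and 13.10 and 10.12 in syngeneic cells, and the helicase Eif4a1 at 16.04, 16.31 and 16.74 against 16.92 and 12.93. For the elongation and termination list the median was 0.00 over 5 genes. Eef2, which moves the ribosome along the mRNA, was at 13.44, 13.18 and 13.23 against 14.46 and 8.91. Like Rpl3, these 3 genes were lowest on syngeneic array 2, where Eif3d and Eef2 were below background. Their differences of 1.60, 1.44 and 1.60 (adjusted p = 0.907 for each) became 0.10, -0.56 and -1.18 without that array. Tpt1, another TOP mRNA, differed by -0.15 (SE 0.38), with 3 arrays at 20.88, the highest value of any probe.

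Mitochondrial ribosomal proteins, which build a separate ribosome, had a median of -0.22 over 10 genes, 8 lower and 2 higher. Mrps18a differed by -0.51 (SE 0.47) and Mrpl34 by 0.37 (SE 0.38). Proteins associated with the cytosolic ribosome differed by -0.42 in the median of 4 genes, and 3 were lower. Rack1, a scaffold protein bound to the small subunit next to Rps3, was at 17.76, 18.30 and 18.03 in tolerant and 18.52 and 18.70 in syngeneic cells, without overlap, a difference of -0.58 (SE 0.40, adjusted p = 0.907). Ssr3, a subunit of the translocon-associated complex of the endoplasmic reticulum, was at 14.67, 14.27 and 14.82 against 15.02 and 15.77, a difference of -0.80 (SE 0.45, adjusted p = 0.907). Ribosome assembly factors had a median of 0.11 over 18 genes, 6 lower and 12 higher, with Sbds, which readies the large subunit for joining, at -0.60 (SE 0.53) and the nucleolar protein Nolc1 above background on only 2 arrays, both tolerant. The list of S6 kinases and mTOR control had a median of -0.41 over 7 genes, 4 lower and 3 higher. In it Rheb, the activator of mTOR, differed by -0.72 (SE 0.56) without overlap, and Mtor was above background on only 1 array, a tolerant one. Aminoacyl-tRNA synthetases had a median of 0.57 over 6 genes, 2 lower and 4 higher, with Lars1 at -0.89 (SE 0.57) and Tars1 at background on all arrays. Without syngeneic array 2 the difference was -0.07 for Sbds, -0.26 for Lars1 and -0.43 for Ssr3. In the same setting it was -0.41 for Mrps18a, -0.50 for Rack1, -0.53 for Rheb and 0.37 for Mrpl34. The median residual standard deviation was 0.74 for initiation factors, 0.46 for mitochondrial ribosomal proteins and 0.56 for assembly factors. For the S6 kinase and mTOR list it was 0.65 and for the synthetases 1.00. Proteins associated with the cytosolic ribosome had 0.21 and elongation and termination factors 0.26. These 2 values were close to the 0.21 of the cytosolic ribosomal proteins, where all probes tested had 0.61. They are medians of only 4 and 5 genes, and the lists were not matched in brightness. Over the 470 bright probes the median was 0.26.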

How the data were processed

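Digoxigenin-labelled cRNA of 5 sorted samples was hybridised, 1 sample an array, to 60-mer probes of an Applied Biosystems rat array, per the labels' protocols. The deposited raw table holds linear intensity values, not normalized between arrays; no label or header gives the software or any background subtraction. The log2 values of the deposited matrix equal the raw intensities after quantile normalisation within 0.000102. These were floored at the 10th percentile (8.29), 1 probe lacking a value was dropped, and the 13428 probes with a mean at or above the median (9.40) were tested with limma 3.58.1 under R 4.3.3 (Benjamini-Hochberg adjustment over all of them; 3.19 prior degrees of freedom); every adjusted p and 95% interval comes from it. The fit was run on simulated data with independent noise and added group differences. Those data held no outlying array, so they do not show how the fit handles one. Precision is limited by the number of arrays.

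By GEO's annotation of the platform 6104 probes have 1 symbol and 70 several, while 20682 are unnamed here. Of the 41 genes 40 matched the RefSeq table (GRCr8). The members, gene lists and tests were chosen with earlier results of these data known. Genes were named by rule: the 8 largest differences in each direction, the 6 widest and 6 narrowest ranges, stalk and paralog-like genes, and genes with over 1 probe; in other lists, the 2 smallest p-values. Other normalizations, floors, filters, weights, a replicate block and leaving out each array were tried. The titles share replicate numbers 1 and 2, which nothing says mark a shared source.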

Additional observations from a re-analysis of the deposited data

How the results depend on the processing

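The count of 0 ribosomal protein genes called held under all 14 alternatives in limma. Over all probes the count of 6 was 53 with median scaling, 81 with no normalization, 13 with 75th percentile scaling, 14 with a prior variance that follows intensity, and 0 with no signal filter, with array weights and with the replicate block; leaving out 1 array gave 0 to 76. The median of the 41 genes, -0.08, was -0.40 with median scaling, -0.61 with no normalization and -0.27 with 75th percentile scaling, where the median of all probes tested moved to -0.16, -0.37 and -0.03. It lay between -0.15 and 0.00012 when 1 array was left out, and within 0.121, the SD of the array medians, under the other alternatives. Of the 25 named genes 11 kept their sign under all alternatives. Signs turned with median scaling (-0.11 for Rpl17, -0.072 for Rpl22, -0.18 for Rpl24, -0.41 for Rpl36al1, -0.33 for Rpl37l1, -0.042 for Rpl4, -0.22 for Rpl6, -0.20 for Rps18, -0.18 for Rps21 and -0.059 for Rps27a-ps1), with no normalization (-0.32 for Rpl17, -0.28 for Rpl22, -0.40 for Rpl24, -0.62 for Rpl36al1, -0.54 for Rpl37l1, -0.25 for Rpl4, -0.43 for Rpl6, -0.41 for Rps18, -0.39 for Rps21, -0.27 for Rps27a-ps1 and -0.16 for Rps29), with 75th percentile scaling (-0.053 for Rpl24, -0.28 for Rpl36al1, -0.20 for Rpl37l1, -0.087 for Rpl6, -0.069 for Rps18 and -0.046 for Rps21), with array weights (-0.021 for Rpl6) and in the fit with the replicate block (-0.036 for Rpl24, -0.017 for Rpl37l1 and -0.062 for Rps21), where the median was -0.15. Relative to the all-probe median, Rpl17, Rpl22, Rps27a-ps1, Rpl4 and Rps29 kept their sign under the 3 scalings. Deviations of same-numbered arrays from their group means had correlations of -0.10 and 0.015. With 2 syngeneic arrays these deviations mirror each other, so the correlations cannot decide whether the block is a pairing. Leaving out 1 array turned the sign of Rpl41 (-0.10 to 0.026), Rpl6 (-0.084 to 0.088), Rpl36al1 (-0.11 to 0.11), Rpl24 (-0.041 to 0.11), Rpl37l1 (-0.017 to 0.21), Rps21 (-0.062 to 0.074), Rpl17 (-0.0035 to 0.15), Rplp0 (-0.46 to 0.30), Rps18 (-0.0055 to 0.20), Rpl3 (-0.84 to 2.16) and Rpl4 (-0.24 to 0.83). The cause of these turns was not tested. The number of arrays, 3 against 2, limits what can be seen. Whether signals close to the top of the range limit it too is not known.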
